A study of Homo sapiens with 14 samples.

Results

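Adjacent edited base pairs were 2 listed A-to-G positions on neighbouring bases of 1 chromosome in the RNA of HEK293T, a readily transfected human line of embryonic kidney origin. They were collected from the lists of dCas13d-ADAR and REPAIR.t1, which are RNA base editors. A pair was kept when 1 list held both positions at a distance of exactly 1 base, and the pairs of the 8 lists were merged. This gave 266 pairs made of 522 sites, with 10 sites belonging to 2 pairs. The 522 sites were 3.04% of the 17194 sites in any of the 8 lists, and the whole series listed 26172 sites. Pairs were chosen by which positions the lists hold, and hence by levels past the listing threshold, so their numbers are given as a description without a test.

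The series held 14 libraries of polyadenylated RNA in 7 groups of 2, labelled by the editor and its guide. The groups used here were dCas13d-ADAR with the EZH2 guide, dCas13d-ADAR with the NT guide, REPAIR.t1 with the EZH2_A22 guide and REPAIR.t1 with the NT guide. DECOR with the MALAT1 guide and REPAIRv2 with the EZH2_A22 or NT guide served for comparison. The question of the series was how RNA editing compares between these editors. What NT and A22 stand for is not spelled out in the labels, and how the editors were delivered, from which promoter and for how long is not given in the sources used here. Every library carried an editor, so the lists do not show which pairs cells without an editor would have. The labels do not say whether replicates were separate cultures, so the p-values cover the spread between the present libraries only, and that spread may be technical.

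ADAR enzymes convert adenosine to inosine in double-stranded RNA by flipping the target base out of the duplex, and reverse transcription reads inosine as guanosine. Their deaminase domain is sensitive to the bases next to the target: a neighbouring guanosine on the 5′ side is disfavoured, while uridine or adenosine there is accepted well. REPAIR editors consist of a catalytically inactive Cas13 protein, which a guide RNA directs to a transcript, and a human ADAR deaminase domain fused to it, and edits away from the guide's target are a known property of this class. REPAIR.t1 is a compact member of that class. Its dCas13d-ADAR counterpart rests on a Cas13d protein, as its label says. In a pair of neighbouring adenosines, each base is the neighbour of the other.

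The A-to-G rate that each list gives per site is called the editing level here, a fraction from 0 to 1. The levels of all sites in the 8 lists ran from 0.0645 to 0.923. Coordinates are those of hg19 (GRCh37). The lists give no strand, so the lower and the higher coordinate of a pair stand for upstream and downstream on the genome, not on the RNA. Genes, exons and neighbouring bases were not analysed here. The lists hold no read depth, so no counting error is attached to a level, and a position missing from a list can be unedited, edited below a threshold or thinly covered. No expression values were listed, so the cell line was not checked against marker genes. The lists were 5730 to 5834 sites long for dCas13d-ADAR and 4356 to 4784 for REPAIR.t1, against 5516 and 5855 for DECOR and 46 to 101 for REPAIRv2.

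Adjacent pairs numbered 67 and 58 in the 2 dCas13d-ADAR libraries with EZH2 and 62 and 57 in those with NT. REPAIR.t1 libraries held 73 and 68 pairs with EZH2_A22 and 70 and 67 with NT. The 2 editors' counts met at 67 pairs, although the dCas13d-ADAR lists were longer. Sites in a pair made up 2.06% ± 0.157 of the sites in dCas13d-ADAR libraries and 2.92% ± 0.101 in REPAIR.t1 libraries (SD, n = 4 each). Per 1000 listed sites this was 10.5 ± 0.763 pairs for dCas13d-ADAR and 15.0 ± 0.537 pairs for REPAIR.t1, and the libraries of the editors did not overlap on this scale. DECOR libraries held 31 and 32 pairs, or 1.06% of their sites. REPAIRv2 libraries held no pair except 1 in NT replicate 2.

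Neighbouring positions were more frequent than positions 2 bases apart in every library of both editors. At 2 bases, dCas13d-ADAR lists held 22 to 25 pairs and REPAIR.t1 lists 24 to 35. At 3 bases the numbers were 43 to 56 for dCas13d-ADAR and 37 to 44 for REPAIR.t1. Averaged over the distances of 2 to 20 bases, a distance held 25.25 ± 0.887 pairs in dCas13d-ADAR libraries and 17.4 ± 1.33 in REPAIR.t1 libraries (SD, n = 4 each), below the 61 ± 4.55 and 69.5 ± 2.65 pairs at 1 base in the same libraries. DECOR ran the other way at the shortest spacings, with 147 and 175 pairs at 2 bases.

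**Figure D1:**
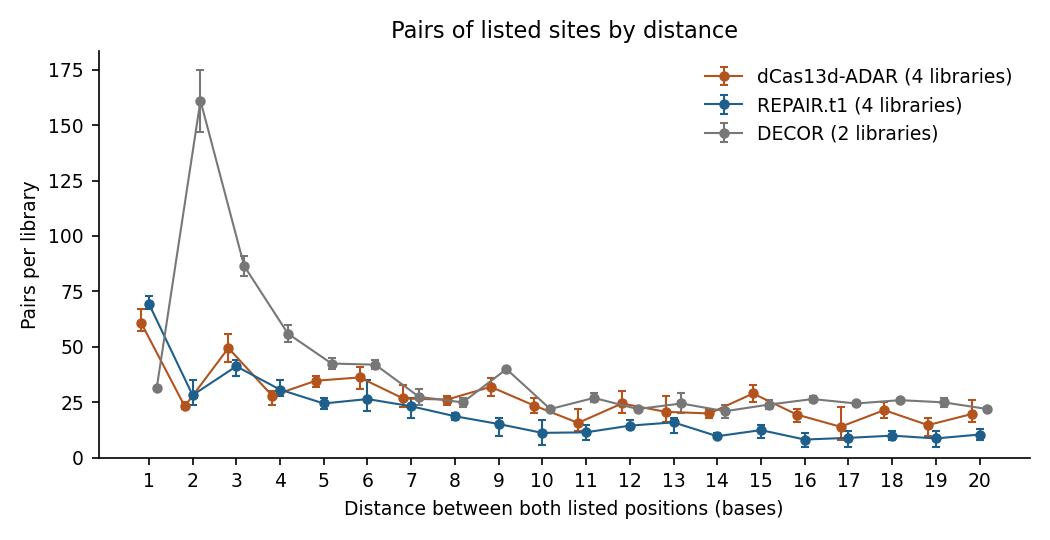
Number of pairs of listed positions per library (vertical axis) against the distance between both positions in bases (horizontal axis), for dCas13d-ADAR, REPAIR.t1 and DECOR; points are means over libraries and bars run from the lowest to the highest library. At 1 base the means were 61 for dCas13d-ADAR and 69.5 for REPAIR.t1, against 31.5 for DECOR, and at 2 bases they were 23.25 for dCas13d-ADAR and 28.25 for REPAIR.t1, against 161 for DECOR.

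Most pairs were listed by few libraries. Of the 266 pairs, 160 (60.2%) came from 1 library, 49 from 2, 21 from 3, 14 from 4, 4 from 5, 8 from 6, 3 from 7 and 7 from all 8. Among the pairs of 1 library, 66 were listed by dCas13d-ADAR and 94 by REPAIR.t1. In the other 7 libraries such a pair mostly had neither position listed (68.7% of 1120 combinations), and 1 position alone was listed in the rest: the lower in 16.9% and the higher in 14.5%. For 49 of the 160 pairs neither position appeared in any other library. The median of the pairs' mean level was 0.25 for pairs of 1 library and 0.343 for the 7 pairs of all 8. It did not rise steadily in between, with 0.277 for pairs of 3 libraries and 0.209 for pairs of 4.

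The editors shared part of their pairs. dCas13d-ADAR lists held 147 pairs and REPAIR.t1 lists 179, and 60 pairs were common, which is 40.8% of the dCas13d-ADAR pairs and 33.5% of the REPAIR.t1 pairs. A further 87 pairs were listed by dCas13d-ADAR alone and 119 by REPAIR.t1 alone. In all 4 libraries of an editor there were 16 pairs for dCas13d-ADAR and 12 for REPAIR.t1.

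A position of a pair was often listed without its neighbour. Of the 179 REPAIR.t1 pairs, 18.3% ± 1.40 had both positions listed in a dCas13d-ADAR library (SD, n = 4 libraries). Where such a library listed the lower position it listed the higher one in 54.4% ± 3.85 of cases, and the lower one in 65.5% ± 5.68 of cases where it listed the higher. Of the 147 dCas13d-ADAR pairs, 21.1% ± 3.09 had both positions in a REPAIR.t1 library. There, the higher position accompanied a listed lower one in 57.1% ± 4.70 of cases, and the lower accompanied a listed higher one in 61.5% ± 4.37. Single positions of REPAIR.t1 pairs were found in a dCas13d-ADAR list in 30.6% ± 0.967 of cases, against 32.6% ± 0.140 for the other sites that REPAIR.t1 listed. Single positions of dCas13d-ADAR pairs were found in a REPAIR.t1 list in 35.3% ± 4.61 of cases, against 24.5% ± 1.14 for the other sites that dCas13d-ADAR listed.

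The first comparison asked whether the lower or the higher coordinate of a pair was edited more. The mean level at the lower position was 0.311, 0.280, 0.292 and 0.309 in the dCas13d-ADAR libraries (EZH2 replicates 1 and 2, then NT replicates 1 and 2), where the higher position had 0.274, 0.270, 0.273 and 0.274. In the REPAIR.t1 libraries (EZH2_A22 replicates 1 and 2, then NT replicates 1 and 2) the lower position had 0.272, 0.293, 0.286 and 0.273 and the higher position 0.250, 0.309, 0.257 and 0.261. The lower coordinate had the higher mean in every library except REPAIR.t1 EZH2_A22 replicate 2.

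The difference, lower minus higher coordinate, averaged 0.0254 ± 0.0133 in dCas13d-ADAR libraries and 0.0119 ± 0.0195 in REPAIR.t1 libraries (SD, n = 4 each). Over all 8 libraries it was 0.0186 ± 0.0171, positive in 7 of 8, with p = 0.03125 in a two-sided exact sign-flip permutation test over libraries. Adjusted by Benjamini-Hochberg over the 5 main permutation tests of levels, the p was 0.156, so the difference did not pass. Permutation tests within an editor, between editors in this difference, on other sets of pairs or sites, or with a library left out were not adjusted. With a library left out the unadjusted exact permutation p was 0.0156 to 0.0625. It was 0.00678 (exact permutation p = 0.430) when only positions at a level of at least 0.2 were kept, where REPAIR.t1 alone turned to -0.00407. The difference was 0.0743 over the 7 pairs that all 8 libraries listed (exact permutation p = 0.00781, the smallest for 8 libraries). Several of these 7 are steps of 1 run of 4 neighbouring positions and share positions, so the value rests on few places in the genome. With 4 libraries the sign-flip test cannot pass 0.05; dCas13d-ADAR reached the smallest p that 4 libraries allow, while REPAIR.t1 had an exact p of 0.375. The difference between the editors, 0.0135, had p = 0.314 in an exact permutation test of 4 libraries against 4. The libraries list overlapping pairs, so these tests ask only whether the sign repeats from library to library.

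**Figure D2:**
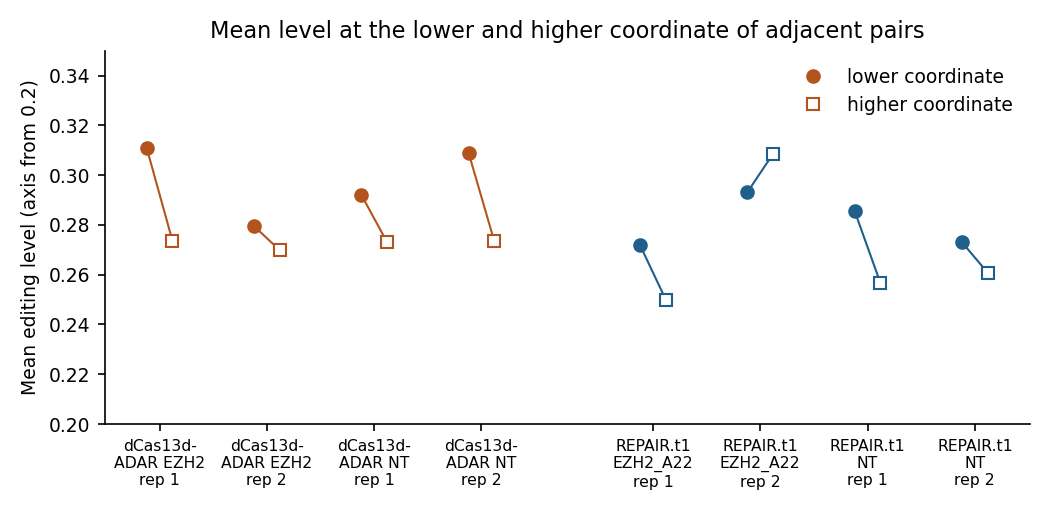
Mean editing level over the adjacent pairs of each library (vertical axis, starting at 0.2) at the lower coordinate (filled circles) and the higher coordinate (open squares), for the 4 dCas13d-ADAR libraries and the 4 REPAIR.t1 libraries. The lower coordinate lies above the higher one in 7 of 8 libraries, and the libraries' means lie between 0.250 and 0.311.

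Counted pair by pair, the lower position was the more edited one in 128 pairs, the higher one in 116 and neither in 22, using each pair's mean over its libraries. The sign was steadier within a pair than across pairs. Of the 36 pairs listed in at least 4 libraries, 11 had the lower position more edited in every library that listed them, 7 had the higher position more edited in every one, and 18 were mixed or had a tie. The more edited position was 1.29 times the less edited one in the median of 522 listings, 5.25 times at most, and at least 2 times in 68 listings (13.0%).

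The next measure was how unlike both positions of a pair were, whichever was ahead, and neighbours did not pass a test against positions further apart. The mean absolute difference within a pair was 0.106 ± 0.00980 in dCas13d-ADAR libraries, against 0.103 ± 0.00413 for positions 2 to 20 bases apart in the same lists. In REPAIR.t1 libraries it was 0.0899 ± 0.00376, against 0.0900 ± 0.00390 (SD, n = 4 each). The gap between distance 1 and distances 2 to 20 averaged 0.00144 ± 0.01002 over 8 libraries, with an exact sign-flip permutation p of 0.789 and the same value after adjustment over the 5 tests. Just outside the rule, at 2 bases, the mean absolute difference was 0.104 to 0.130 in dCas13d-ADAR libraries and 0.0775 to 0.0999 in REPAIR.t1 libraries. Across the pairs of a library, the levels of both positions correlated with Pearson's r between 0.327 and 0.503, and between 0.305 and 0.461 for distances of 2 to 20 bases. These correlations share library and unknown depth and are descriptions only.

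Ties were more frequent between neighbours than at 2 to 20 bases in 7 of 8 libraries, which was not tested. Both positions had the same level, within 1e-06, in 8.996% ± 4.97 of pairs in dCas13d-ADAR libraries, against 4.28% ± 0.228 at 2 to 20 bases. In REPAIR.t1 libraries the shares were 10.5% ± 6.05 at 1 base, against 4.07% ± 0.608 at 2 to 20 bases (SD, n = 4 each). The tied share at 1 base ran from 5.26% to 16.1% over dCas13d-ADAR libraries and from 2.86% to 17.6% over REPAIR.t1 libraries. A pair on chromosome 1 at 160184175, chosen after its values were seen, had equal levels in 4 of the 5 libraries that listed it. These were 0.25, 0.286 and 0.212 in dCas13d-ADAR EZH2 replicates 1 and 2 and NT replicate 1, and 0.353 in REPAIR.t1 EZH2_A22 replicate 2. REPAIR.t1 NT replicate 1 had 0.323 at the lower and 0.276 at the higher position.

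Of the 266 pairs, 7 had both positions in all 8 libraries, and 3 of these formed a run of 4 neighbouring positions on chromosome 6, from 74228114 to 74228117. This was the longest run in the lists. Its first position had levels of 0.366, 0.3, 0.275 and 0.38 in dCas13d-ADAR libraries and 0.340, 0.35, 0.341 and 0.385 in REPAIR.t1 libraries. The second had 0.575, 0.5, 0.475 and 0.531 in dCas13d-ADAR libraries and 0.453, 0.45, 0.432 and 0.471 in REPAIR.t1 libraries. The second position was the highest of the run in each of the 8 libraries.

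The third position of the run had 0.4, 0.308, 0.325 and 0.383 in dCas13d-ADAR libraries and 0.333, 0.368, 0.372 and 0.353 in REPAIR.t1 libraries. The fourth had 0.256, 0.211, 0.175 and 0.174 in dCas13d-ADAR libraries and 0.269, 0.216, 0.2 and 0.18 in REPAIR.t1 libraries, the lowest of the run in each library. Over all 8 libraries the means were 0.342, 0.486, 0.355 and 0.210 from the first to the fourth position. At the second position the editors' libraries did not overlap, with 0.520 ± 0.0431 in dCas13d-ADAR and 0.451 ± 0.0159 in REPAIR.t1 (SD, n = 4 each). Such a gap with dCas13d-ADAR above was present at 11.5% of all 609 sites listed in all 8 libraries. The limma comparison of the editors described below did not call it (adjusted p = 0.507).

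The run of 4 and the other pairs in all 8 libraries were placed in a limma fit over all 28 pairs of positions 1 to 20 bases apart that every library listed. The fit tested lower minus higher coordinate in log2 odds of the level over the 8 libraries, with Benjamini-Hochberg adjustment and a threshold of 0.05. It called 19 of the 28 (67.9%), and 13 (46.4%) with the lower coordinate more edited. All 7 adjacent pairs were called, 6 of them with the lower coordinate more edited, beside 12 of the 21 pairs at 2 to 20 bases (57.1%). The median absolute difference was 0.76 log2 odds for adjacent pairs and 0.61 for the more distant ones. Several of these pairs share positions, so they are not independent.

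Within the run, first minus second position was -0.85 log2 odds (SE 0.08, limma adjusted p = 4.01e-05). The second exceeded the third by 0.76 (SE 0.08, limma adjusted p = 6.65e-05), and the third exceeded the fourth by 1.03 (SE 0.10, limma adjusted p = 4.01e-05). All 3 steps had the same sign in 8 of 8 libraries. The first and the third position, which lie 2 bases apart, were not called apart (-0.09 log2 odds, SE 0.09, limma adjusted p = 0.396).

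The largest difference among the pairs of all 8 libraries was on chromosome 17 at 79804384. Its lower position had levels of 0.455, 0.576, 0.514 and 0.5 in dCas13d-ADAR libraries and 0.4, 0.455, 0.386 and 0.275 in REPAIR.t1 libraries. The higher position had 0.171, 0.382, 0.268 and 0.270 in dCas13d-ADAR libraries and 0.206, 0.167, 0.143 and 0.159 in REPAIR.t1 libraries. The lower position was ahead in 8 of 8 libraries, and the difference was 1.51 log2 odds (SE 0.14, limma adjusted p = 4.01e-05).

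On chromosome 22 at 39710791, a weakly edited pair, the lower position had 0.213, 0.133, 0.24 and 0.113 in dCas13d-ADAR libraries and 0.161, 0.306, 0.188 and 0.186 in REPAIR.t1 libraries. Its higher position had 0.167, 0.0930, 0.176 and 0.1 in dCas13d-ADAR libraries and 0.105, 0.108, 0.121 and 0.136 in REPAIR.t1 libraries. The lower position was the higher in level in 8 of 8 libraries (0.66 log2 odds, SE 0.13, limma adjusted p = 0.00266).

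A highly edited pair lay on chromosome 6 at 41903473. Its lower position had 0.429, 0.533, 0.714 and 0.5 in dCas13d-ADAR libraries and 0.579, 0.4, 0.4 and 0.476 in REPAIR.t1 libraries, and its higher position 0.294, 0.438, 0.6 and 0.389 in dCas13d-ADAR libraries and 0.526, 0.4, 0.462 and 0.381 in REPAIR.t1 libraries. The lower position was ahead in 6 libraries, tied in REPAIR.t1 EZH2_A22 replicate 2 and behind in REPAIR.t1 NT replicate 1 (0.40 log2 odds, SE 0.11, limma adjusted p = 0.0131). Without dCas13d-ADAR EZH2 replicate 1 the adjusted p was 0.0577.

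The pair on chromosome 17 at 16344987 was called on a small difference. Its lower position had 0.326, 0.486, 0.4 and 0.2 in dCas13d-ADAR libraries and 0.275, 0.45, 0.395 and 0.333 in REPAIR.t1 libraries, and its higher position 0.262, 0.444, 0.310 and 0.157 in dCas13d-ADAR libraries and 0.256, 0.462, 0.4 and 0.333 in REPAIR.t1 libraries. All 4 dCas13d-ADAR libraries had the lower position ahead, while the REPAIR.t1 libraries had 1 ahead, 2 behind and 1 tied (0.21 log2 odds, SE 0.08, limma adjusted p = 0.0428). The call was lost in 7 alternatives, among them without dCas13d-ADAR EZH2 replicate 1 (adjusted p = 0.203) and on the untransformed level (adjusted p = 0.0582).

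**Figure D3:**
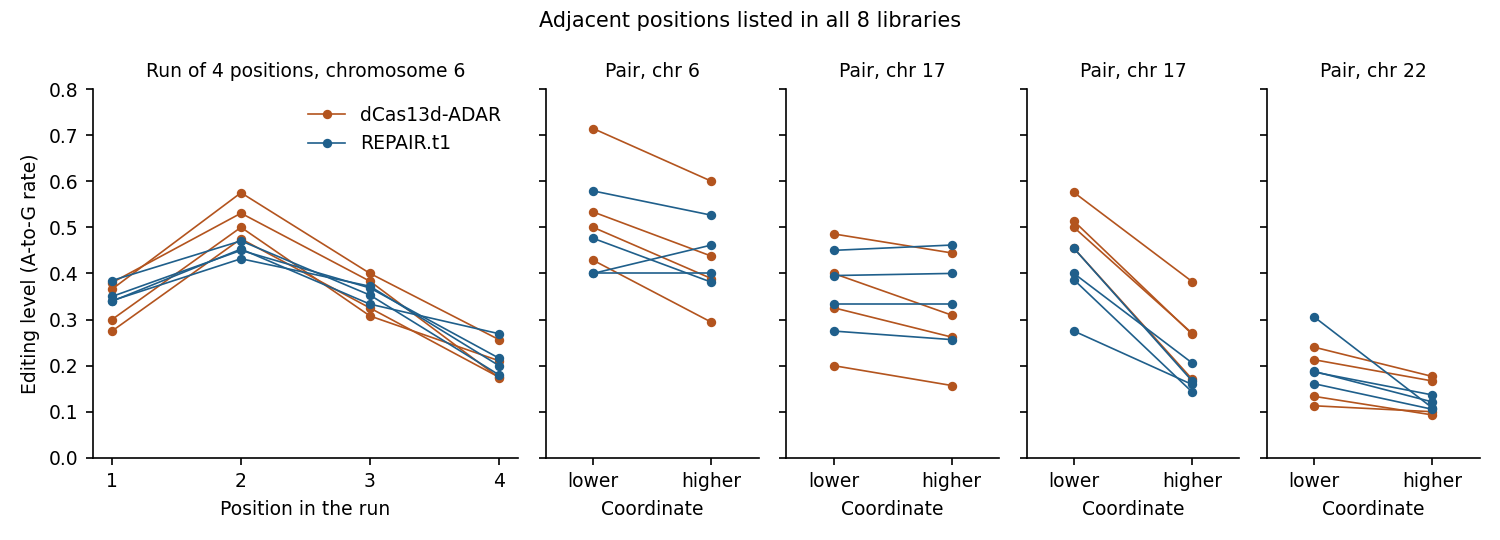
Editing level (vertical axis, A-to-G rate) at each position of the adjacent pairs that all 8 libraries listed, with 1 line per library for dCas13d-ADAR and REPAIR.t1: the run of 4 positions on chromosome 6 at the left, then the pairs on chromosome 6 (41903473), chromosome 17 (16344987 and 79804384) and chromosome 22 (39710791). The second position of the run is the highest in every line, and the pair at 79804384 falls in every line from its lower to its higher coordinate.

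The fit was also asked whether the difference within a pair depended on the editor. None of the 28 pairs was called (0%), with a smallest limma adjusted p of 0.138 (1 pair without dCas13d-ADAR EZH2 replicate 2), while 4 of the 7 adjacent pairs had an exact permutation p of 0.0286, the smallest for 4 libraries against 4. The difference within the pair at 41903473 was 0.114 ± 0.0159 in dCas13d-ADAR and 0.0216 ± 0.0677 in REPAIR.t1, and that at 16344987 was 0.0596 ± 0.0229 in dCas13d-ADAR and 0.000600 ± 0.0129 in REPAIR.t1 (SD, n = 4 each). In the run of 4, the step from the first to the second position was -0.190 ± 0.0266 in dCas13d-ADAR and -0.0975 ± 0.0120 in REPAIR.t1. The step from the second to the third was 0.166 ± 0.0213 in dCas13d-ADAR and 0.0946 ± 0.0291 in REPAIR.t1. In these 4 pairs the libraries of the editors did not overlap, at 41903473 only narrowly. They were 4 of all 28 pairs, since no more distant pair had an exact permutation p below 0.0571. The steps to and from the second position of the run share that position, so they are not independent. At that position itself the editors' libraries did not overlap either.

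Among the pairs in at least 4 libraries, those with the largest mean differences are given next; they were ranked by that difference, so it is a description. The largest was on chromosome 16 at 2012503. Its lower position had 0.48, 0.412, 0.579 and 0.451 in dCas13d-ADAR libraries and 0.234, 0.333, 0.377 and 0.42 in REPAIR.t1 libraries. Its higher position had 0.0962, 0.12, 0.193 and 0.1 in dCas13d-ADAR libraries, and 0.113 and 0.08 in REPAIR.t1 NT replicates 1 and 2. The difference was 0.336 ± 0.0493 (SD, n = 6 libraries), and both REPAIR.t1 EZH2_A22 libraries listed the lower position alone.

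The pair on chromosome 19 at 52716015 was similar, with a difference of 0.279 ± 0.0772 (SD, n = 6 libraries). Its lower position had 0.528, 0.438, 0.469 and 0.577 in dCas13d-ADAR libraries and 0.438, 0.265, 0.333 and 0.270 in REPAIR.t1 libraries. The higher position had 0.188, 0.133, 0.129 and 0.259 in dCas13d-ADAR libraries, and 0.214 and 0.185 in replicate 1 of REPAIR.t1 EZH2_A22 and of REPAIR.t1 NT. Replicate 2 of both REPAIR.t1 groups listed the lower position alone.

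On chromosome 1 at 38042099 the lower position had 0.615, 0.467, 0.630 and 0.519 in dCas13d-ADAR libraries and 0.708, 0.444, 0.6 and 0.478 in REPAIR.t1 libraries. The higher position had 0.286 and 0.25 in dCas13d-ADAR EZH2 replicate 1 and NT replicate 1, and 0.333, 0.269, 0.4 and 0.458 in REPAIR.t1 libraries. The difference averaged 0.247 ± 0.141 (SD, n = 6 libraries) and ran from 0.0199 to 0.380, the widest spread of the pairs given here. On chromosome 9 at 136228639 the difference was 0.233 ± 0.0586 (SD, n = 5 libraries), with a mean level of 0.511 at the lower and 0.278 at the higher position over those libraries. All 8 libraries listed its lower position and 5 its higher one.

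Pairs with the higher coordinate more edited were led by chromosome 4 at 103717874, which was a pair in the 4 REPAIR.t1 libraries. Its lower position had 0.229, 0.257, 0.344 and 0.409 and its higher position 0.556, 0.6, 0.636 and 0.652, a difference of -0.301 ± 0.0442 (SD, n = 4 libraries). The dCas13d-ADAR libraries listed the higher position at 0.48, 0.56, 0.545 and 0.636 and did not list the lower one.

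On chromosome 20 at 377573 the lower position had 0.391, 0.333, 0.4 and 0.4 in dCas13d-ADAR libraries, and 0.353, 0.389 and 0.368 in REPAIR.t1 EZH2_A22 replicates 1 and 2 and NT replicate 1. The higher position had 0.667, 0.462, 0.6 and 0.615 in dCas13d-ADAR libraries and 0.571, 0.75, 0.647 and 0.462 in REPAIR.t1 libraries. All 7 libraries that listed both had the higher position ahead, by 0.240 ± 0.0737 on average (SD, n = 7 libraries; -0.240 as lower minus higher).

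Smaller differences of the same sign were -0.144 ± 0.0530 (SD, n = 8 libraries) for the first step of the run of 4, -0.102 ± 0.0561 (SD, n = 4 libraries) on chromosome 19 at 14519748 and -0.0928 ± 0.0492 (SD, n = 7 libraries) on chromosome 17 at 7149374. At 7149374 the lower position had 0.217, 0.414, 0.207 and 0.241 and the higher one 0.391, 0.464, 0.296 and 0.308 in dCas13d-ADAR libraries. All 4 dCas13d-ADAR libraries and the 3 REPAIR.t1 libraries that listed the pair had the higher position ahead.

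**Figure D4:**
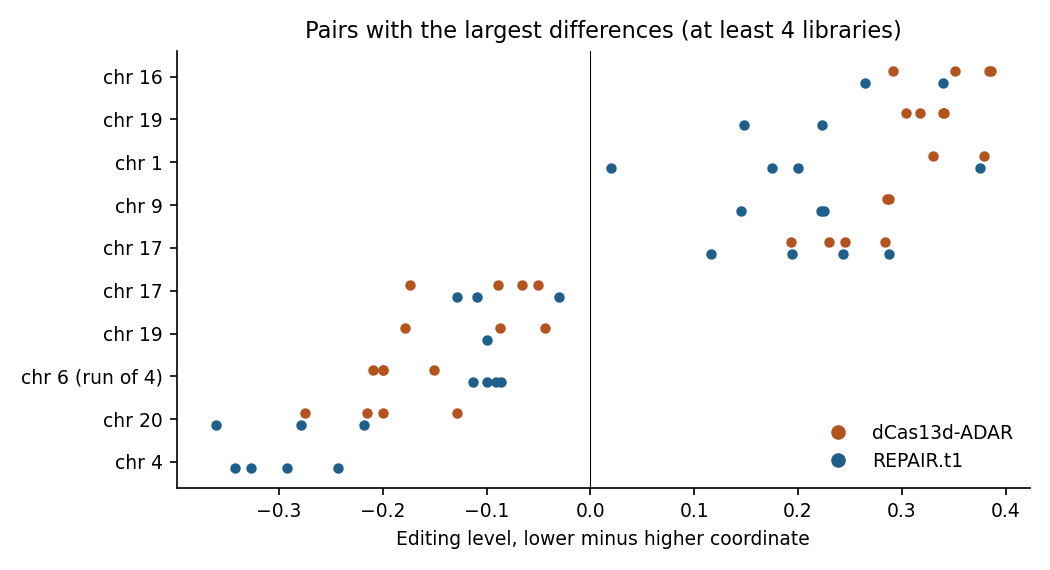
Difference in editing level, lower minus higher coordinate (horizontal axis), for the pairs in at least 4 libraries with the 5 largest positive and 5 largest negative mean differences (rows, by chromosome), with 1 point per library. Every point of the upper rows is above 0 and every point of the lower rows below 0; the means run from 0.336 on chromosome 16 to -0.301 on chromosome 4.

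The direction within a pair was mostly common to the editors. Of the 60 pairs listed by both, 46 had the same sign of the mean difference, 30 with the lower and 16 with the higher position more edited, 10 had opposite signs and 4 were tied in an editor. Over the 60 pairs the mean differences of the editors correlated with Pearson's r of 0.848 and Spearman's rho of 0.822. Of the 26 pairs in at least 2 libraries of each editor, 21 had the same sign, 4 opposite signs and 1 a tie, with an r of 0.917. These values describe pairs of unknown depth and carry no p.

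The comparison was also restricted, in each library, to those of its pairs that the other editor listed too. All of these are among the 60 shared pairs and were part of the main comparison, so this is no independent check. Pairs that REPAIR.t1 also listed had a difference of 0.0424 ± 0.0139 in dCas13d-ADAR libraries, over 30 to 36 pairs a library. Pairs that dCas13d-ADAR also listed had 0.0345 ± 0.0211 in REPAIR.t1 libraries, over 25 to 35 pairs a library (SD, n = 4 each). Over all 8 libraries the mean was 0.0384 (unadjusted exact permutation p = 0.00781). Every library was positive, which gives each editor the smallest p that the exact sign-flip permutation test allows for 4 libraries, above 0.05.

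**Figure D5:**
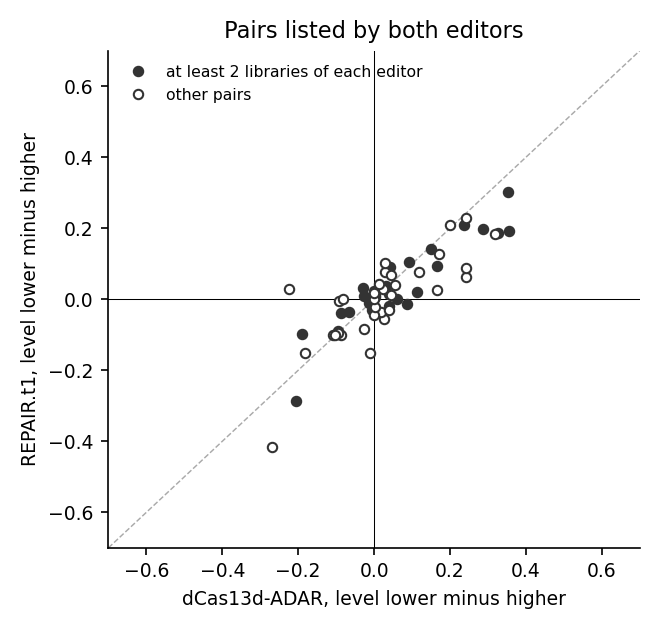
Mean difference in editing level, lower minus higher coordinate, of the 60 pairs listed by both editors, in dCas13d-ADAR libraries (horizontal axis) and in REPAIR.t1 libraries (vertical axis); filled points were listed in at least 2 libraries of each editor, and the dashed line marks equal values. The part of the plot with both values above 0 holds 30 pairs, that with both below 0 holds 16, and 10 pairs have opposite signs.

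The next comparison was between editors in the level of the member sites. Each library's mean over the member sites it listed was 0.285, 0.285, 0.289 and 0.283 in dCas13d-ADAR libraries and 0.264, 0.286, 0.260 and 0.263 in REPAIR.t1 libraries. REPAIR.t1 EZH2_A22 replicate 2 lay among the dCas13d-ADAR libraries and the other 3 REPAIR.t1 libraries below them. The means were 0.285 ± 0.00245 for dCas13d-ADAR and 0.268 ± 0.0119 for REPAIR.t1 (SD, n = 4 each), a difference of 0.0172 with an exact permutation p of 0.114 (0.195 after adjustment over the 5 tests). Without REPAIR.t1 EZH2_A22 replicate 2 the difference was 0.0211 and the exact permutation p was 0.0286, the smallest possible.

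A fixed set of sites separated the editors. The 46 member sites that all 8 libraries listed averaged 0.382 ± 0.00441 in dCas13d-ADAR libraries and 0.340 ± 0.0142 in REPAIR.t1 libraries (SD, n = 4 each), a difference of 0.0420 (exact permutation p = 0.0286). The other 563 sites listed by all 8 libraries were further apart, with 0.369 ± 0.00593 in dCas13d-ADAR and 0.318 ± 0.00950 in REPAIR.t1, a difference of 0.0502. Both sets were higher in dCas13d-ADAR. Some of the 46 are members only through pairs in lists of 1 editor. Examples are 228335346 on chromosome 1 for dCas13d-ADAR and 103717875 on chromosome 4 for REPAIR.t1. The p for member sites is thus not independent of how members were chosen, and the same holds for the listed members above.

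The guides were compared within each editor. Member sites averaged 0.285 with EZH2 and 0.286 with NT in dCas13d-ADAR libraries, and 0.275 with EZH2_A22 and 0.262 with NT in REPAIR.t1 libraries (n = 2 each). EZH2 minus NT was -0.00100 in dCas13d-ADAR and 0.0133 in REPAIR.t1, together 0.00617 (exact permutation of guides within editors, p = 0.444, with 0.0556 the smallest possible; 0.556 after adjustment). Over the 46 member sites that all 8 libraries listed it was 0.0112 (exact permutation p = 0.0556). Without REPAIR.t1 EZH2_A22 replicate 2 the sign over all listed members turned, to -0.000683.

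Member sites were then set against the other sites of the same list. The difference, members minus other sites, averaged -0.00433 ± 0.00689 over 8 libraries and was negative in 5 (exact sign-flip permutation p = 0.117, 0.195 after adjustment). It was -0.00205 in dCas13d-ADAR and -0.00660 in REPAIR.t1. With only sites at a level of at least 0.2 kept and pairs formed anew, members were 0.0203 above the others (exact sign-flip permutation p = 0.00781). A member then needed a neighbour at 0.2 or above. The choice thus used levels, and this p does not test the same members.

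Single member sites were compared between the editors with limma on log2 odds over the 609 sites that all 8 libraries listed, with the guide as a covariate. At an adjusted p below 0.05, 44 of the 609 were called (7.22%), 40 higher (6.57%) and 4 lower (0.657%) in dCas13d-ADAR. The count was 10 without dCas13d-ADAR NT replicate 1, 18 without REPAIR.t1 EZH2_A22 replicate 2 and 19 without REPAIR.t1 NT replicate 2. Of the 522 member sites, 46 were listed everywhere and tested, and 2 of these were called (4.35%), both higher in dCas13d-ADAR. Both are members only through pairs in dCas13d-ADAR lists, so their direction is not independent of how members were chosen. At an unadjusted p below 0.05 there were 12 of the 46 members and 158 of all 609. Libraries of the editors did not overlap at 5 members with dCas13d-ADAR above (11.5% of all sites) and at none with REPAIR.t1 above (1.81% of all sites). The 5 include both called sites and 33731172 on chromosome 11, which is likewise a member only through dCas13d-ADAR pairs. The median difference was 0.34 log2 odds for members and 0.34 for all sites, and 63.0% of members against 74.2% of all sites were higher in dCas13d-ADAR.

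The larger call was chromosome 1 at 228335346, with levels of 0.273, 0.412, 0.471 and 0.353 in dCas13d-ADAR libraries and 0.176, 0.143, 0.156 and 0.206 in REPAIR.t1 libraries. All dCas13d-ADAR libraries lay above all REPAIR.t1 libraries, with means of 0.377 ± 0.0845 in dCas13d-ADAR and 0.170 ± 0.0274 in REPAIR.t1 (SD, n = 4 each; 1.503 log2 odds, SE 0.36, limma adjusted p = 0.00643). Without dCas13d-ADAR NT replicate 1 the adjusted p was 0.0587. Its neighbour at 228335345 was listed by dCas13d-ADAR EZH2 replicate 2 alone, at 0.118.

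The second call was chromosome 7 at 132470144, with 0.536, 0.645, 0.5 and 0.625 in dCas13d-ADAR libraries and 0.393, 0.448, 0.32 and 0.387 in REPAIR.t1 libraries. The means were 0.576 ± 0.0697 in dCas13d-ADAR and 0.387 ± 0.0525 in REPAIR.t1 (SD, n = 4 each; 1.10 log2 odds, SE 0.36, limma adjusted p = 0.0453). This call was lost when any of 7 libraries was left out, with adjusted p between 0.0727 and 0.151. Its neighbour was listed in dCas13d-ADAR EZH2 replicate 1 at 0.192 and in NT replicate 2 at 0.167.

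Pairs in all 4 libraries of an editor and in none of the other numbered 1 for dCas13d-ADAR and 2 for REPAIR.t1. For dCas13d-ADAR it was chromosome 22 at 50637645, with 0.429, 0.16, 0.273 and 0.304 at the lower and 0.381, 0.174, 0.190 and 0.208 at the higher position. REPAIR.t1 listed neither position. For REPAIR.t1 they were the pair on chromosome 4 described above and chromosome 2 at 10582185, with 0.25, 0.211, 0.143 and 0.108 at the lower and 0.195, 0.162, 0.128 and 0.108 at the higher position, neither of them listed by dCas13d-ADAR. In at least 2 libraries of an editor and none of the other there were 21 pairs for dCas13d-ADAR and 25 for REPAIR.t1.

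Runs of 3 or more neighbouring positions were found 7 times. Besides the run of 4, the run from 166733684 to 166733686 on chromosome 6 was listed by 3 REPAIR.t1 libraries, with mean levels of 0.211, 0.196 and 0.320 along it. The other runs of 3 came from 1 library each. The run at 157209848 on chromosome 7 had 0.333, 0.429 and 0.25 in REPAIR.t1 EZH2_A22 replicate 2. In dCas13d-ADAR NT replicate 2, the run at 44154904 on chromosome 7 had 0.348, 0.318 and 0.130 and that at 6629987 on chromosome 11 had 0.214, 0.286 and 0.231. The order of levels along a run differed from run to run.

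Paired sites more often had further company. A listed site within 50 bases, apart from the partner, was present for 33.9% ± 3.46 of paired and 23.9% ± 0.636 of unpaired sites in dCas13d-ADAR libraries. In REPAIR.t1 libraries it was present for 35.4% ± 8.34 of paired and 19.2% ± 0.726 of unpaired sites (SD, n = 4 each). By chromosome, the pairs followed the listed sites loosely: chromosome 1 held 35 pairs (13.2% of pairs against 11.99% of listed sites) and chromosome 19 held 23 (8.65% against 9.95%). Chromosomes 13, 18 and 21 held 1 pair each (0.376% of pairs), against 0.663%, 0.733% and 1.01% of listed sites.

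The other editors rarely listed these sites. DECOR listed 1 member site (0.192% of 522), at 39710792 on chromosome 22 with a level of 0.0959 in replicate 1, against 342 of the 16672 other sites of dCas13d-ADAR and REPAIR.t1 (2.05%). None of the 52 pairs of DECOR, of which 11 were in both of its libraries, was a pair of these editors. DECOR differed from the other libraries in its guide and in read length (62 and 160 cycles against 25 and 97), and these cannot be told apart from the editor. REPAIRv2 listed 8 member sites (1.53%), against 174 of the other 16672 (1.04%).

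Of the REPAIRv2 members, 150238125 on chromosome 1 was listed in 3 libraries, at 0.269 and 0.238 with EZH2_A22 and at 0.161 with NT. The lower positions at 38042099 on chromosome 1 (0.4 and 0.25 with EZH2_A22) and 16344987 on chromosome 17 (0.146) and the higher position at 103717875 on chromosome 4 (0.364 and 0.133 with NT) were, like 150238125, the positions of their pairs with the higher mean level over the libraries of dCas13d-ADAR and REPAIR.t1 that listed both. The second position of the run of 4 was listed too, by NT replicate 2. In none of these cases did REPAIRv2 list the partner. The single pair of REPAIRv2, at 120898998 on chromosome 12 with 0.375 at the lower and 0.6 at the higher position, was in no list of dCas13d-ADAR or REPAIR.t1.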

How the data were processed

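Per the labels' protocols, polyadenylated RNA of HEK293T cells carrying an RNA base editor was sequenced from directional libraries. For each library the authors deposited a list of chromosome, position and A-to-G rate, and the values show the rate to be a fraction. Per the submitters' processing notes, cutadapt and STAR 2.6.1b and the builds hg19 and GRCh37 were used, in roles the notes leave out. How sites were called, at which coverage and level, and how genomic variants were handled is not given in the sources used here. These steps decide which neighbouring positions are listed, and thus which pairs exist. Depth is unknown, and numbers of listed positions mix editing with detection.

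Positions 1 base apart in a list were paired, and the pairs of 8 libraries were merged. The pairs, the lists of named pairs and the tests were chosen with earlier results of these data known. Groups were taken from the sample titles, 2 libraries each, and the library was the replicate in every test. Means per library were tested by two-sided exact permutation: sign flips over 8 libraries (256 patterns) or 4 libraries (16 patterns), labels over 4 against 4 (70 arrangements), or guides within editors (36 arrangements). Adjustment by Benjamini-Hochberg ran over 5 such tests. These were lower minus higher coordinate over 8 libraries, member level between editors, between guides and against other sites, and absolute difference by distance. The other permutation tests were not adjusted. Single sites and pairs were tested with limma 3.58.1 in R 4.3.3 on log2 odds computed from the deposited fraction, adding 0.01 to the level and to 1 minus the level, on positions in all 8 libraries, with adjustment over all sites or pairs of the fit and a threshold of 0.05. The steps were tested on simulated data. Calculations used Python 3.11.15 (scipy 1.17.1, pandas 2.3.3, numpy 2.4.6), with matplotlib 3.10.9 for figures.

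Pairs named are those in all 8 libraries, the 5 largest positive and 5 largest negative mean differences among pairs in at least 4 libraries, the 5 longest runs of 3 or more positions, pairs in all 4 libraries of an editor and none of the other, pairs of REPAIRv2 or DECOR, and member sites called by limma. Other named sites were chosen after their values were seen, namely a tied pair and the sites also listed by DECOR or REPAIRv2. Alternatives were minimum levels of 0.1 and 0.2, log2 odds or medians, other choices of pairs, runs left out, each library left out, the replicate block, and for limma the offset, the scale, a trend of the spread, the guide covariate, the sites tested and distances up to 50 bases. At a minimum level, pairs and members were formed anew from the sites kept. The editor term of the close-pair fit was added after seeing the data. Turning each pair to the strand of its RNA and printing its bases were not done, since no sequence of hg19 was used here.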

Additional observations from a re-analysis of the deposited data

Results flagged for a closer look

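In 38 sets of 4 libraries, 1 held a library far from the other 3 by Dixon's test, which chance passes in about 1 set in 20. It was the mean level of the member sites in REPAIR.t1, where EZH2_A22 replicate 2 had 0.286 and the other libraries 0.260 to 0.264.

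The difference within a pair (lower minus higher coordinate) was compared between the editors at the 7 adjacent pairs of all 8 libraries, and 4 had an exact permutation p of 0.0286 without adjustment, while the limma adjusted p was 0.138 for each. On chromosome 6, dCas13d-ADAR minus REPAIR.t1 was 0.0923 at 41903473, 0.0716 at 74228115 and -0.0924 at 74228114. On chromosome 17 it was 0.0590 at 16344987. In each of these the difference within the pair was larger in size in dCas13d-ADAR. No other pair of the 28 in the close-pair fit had an exact permutation p of 0.0286. The pairs at 74228114 and 74228115 share a position, so they are not independent.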

How the results depend on the processing

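Of 179 settings of the results over libraries, 142 kept direction, side of the threshold and, for counts, a value within 1.5 times or, for pair differences of 1 editor, within 1 SD. Of 218 settings for single sites and pairs, 198 did so, 18 lost a call, 2 gained one and none reversed. Below, pairs of the other editor are those pairs of a library that the other editor listed too. They lie within the pairs shared by both editors and are no independent set. Lower minus higher coordinate was 0.00678 at levels of at least 0.2 (exact permutation p = 0.430), 0.0384 over pairs of the other editor, 0.0743 over pairs of all 8 libraries (exact permutation p = 0.00781 each) and 0.0160 to 0.0235 with a library left out (p = 0.0156 to 0.0625, over the 0.05 threshold in 5 of 8 cases: without dCas13d-ADAR EZH2 replicate 1, NT replicate 1 or NT replicate 2, or without REPAIR.t1 EZH2_A22 replicate 1 or NT replicate 1). For dCas13d-ADAR it was 0.0398 over pairs in at least 2 libraries, 0.0424 over pairs of the other editor, 0.0827 over pairs of all 8 libraries and 0.0214 to 0.0306 with a library left out. For REPAIR.t1 it was -0.00407 at levels of at least 0.2 (exact permutation p = 0.75), 0.0345 over pairs of the other editor, 0.0660 over pairs of all 8 libraries and 0.00621 to 0.0210 with a library left out. The cause was not tested.

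The editor difference in member level was 0.0163 at levels of at least 0.2 and 0.0420 at sites of all 8 libraries (exact permutation p = 0.0286 each), and 0.0141 to 0.0211 with a library left out. EZH2 minus NT was 0.0112 at member sites of all 8 libraries (exact permutation p = 0.0556) and -0.000683 to 0.0110 with a library left out, below 0 without REPAIR.t1 EZH2_A22 replicate 2. Members minus other sites was 0.0203 at levels of at least 0.2, where members were chosen anew among the sites kept. It was -0.0537 in log2 odds (exact permutation p = 0.0234) and -0.0113 for medians (exact permutation p = 0.03125). With a library left out it was -0.00522 to -0.00102 (exact permutation p = 0.0469 without REPAIR.t1 EZH2_A22 replicate 2). The absolute difference of neighbours minus that at 2 to 20 bases was -0.00338 in log2 odds, -0.000612 for medians, -0.000374 for pairs of the other editor and -0.00163 to 0.00279 with a library left out. Pairs per library at levels of at least 0.2 numbered 34.75 for dCas13d-ADAR and 38 for REPAIR.t1 on average.

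Sites called between the editors numbered 10 to 42 with a library left out (10 without dCas13d-ADAR NT replicate 1, 18 without REPAIR.t1 EZH2_A22 replicate 2, 19 without REPAIR.t1 NT replicate 2). Member sites called numbered 1 with a trend of the spread, 1 over sites missing from at most 1 library, and 0 to 3 with a library left out (0 without dCas13d-ADAR NT replicate 1). Close pairs called numbered 16 to 26 and adjacent pairs 5 to 8 with a library left out, and pairs called for the editor term 0 to 1 (1 without dCas13d-ADAR EZH2 replicate 2).

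Replicate numbers are shared between groups, but over 6 pairs of groups the difference of replicate 1 and 2 correlated with r of only -0.0146 to 0.0553 over 609 sites. No pairing of replicates was seen, though noise in levels of unknown depth could hide one. With the replicate block the editor difference was 0.0172 (exact permutation p = 0.25), EZH2 minus NT was 0.00617 (exact permutation p = 0.5), limma called 44 sites, 2 of them members, and 20 close pairs, 7 of them adjacent. The comparison of the 5′ with the 3′ adenosine was not run, since no sequence of hg19 was used here. Unknown depth limits every level, above all at pairs of 1 library.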
